A study of Bubalus bubalis with 6 samples.

Results

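Solute carriers (SLC) that were hosts of circRNAs in buffalo adipose tissue were described here. A host was taken when the circRNA table named it alone, with a symbol of SLC and a number or of SLCO, and no expression value entered that choice. The rule found 163 circRNAs of 14990, from 74 host genes of 4000 hosts with a single symbol. The deposited table lists more circRNAs than the study describes and the filter between them was not given, so the counts and shares here are those of the full table. The mRNA level of each host was the sum over its host transcripts, 79 in all, each of which was found in the mRNA table of 79746 transcripts. The hosts belonged to 31 SLC families, which were placed in 8 classes by the substrate or the compartment of the family.

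Solute carriers are membrane proteins that move small molecules across the plasma membrane and the membranes of organelles, either down a gradient or by coupling the substrate to an ion. Adipocytes depend on them to take up glucose, amino acids and monocarboxylates, to feed the mitochondrion with acylcarnitines and nucleotides, and to keep pH, calcium and zinc in range. A circRNA is made when a downstream splice site is joined back to an upstream one, so each is known by the back-spliced junction of its host, written here as chromosome, start and end on cattle UMD3.1.

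Adipose tissue under the skin was sampled after slaughter from 3 young (6 months) and 3 adult (30 months) Chinese swamp buffaloes, 1 library per animal, all raised on the same farm with like feeding, and no treatment or genotype is named. The sex of the animals was not given in the sources used here. Ribosomal RNA was removed and linear RNA kept, so circRNA and mRNA were read from the same libraries. Since whole tissue was sequenced, fewer cells of a type and less RNA per cell cannot be told apart.

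The libraries held 10745 to 17680 back-spliced reads. The FPKM of all transcripts summed to 1093380 to 1237790 in young and to 657311 to 721755 in adult libraries. Of 8 adipocyte markers, the 4 that could be named, LPL, CIDEC, PPARG and PLIN4, were all above 0 in each library and summed to 346 to 1668 FPKM in young and 2676 to 4697 FPKM in adult libraries. The 2 macrophage markers that could be named, CD163 and MRC1, summed to 133 to 190 FPKM in young and 48.1 to 73.6 FPKM in adult libraries, although MRC1 by itself overlapped between groups. The smooth muscle and pericyte markers MYH11 and NOTCH3 summed to 43.6 to 136 and to 16.9 to 26.4 FPKM. The lymphocyte markers PTPRC and IKZF1 summed to 43.4 FPKM in young replicate 1 and to 2.82 to 8.45 FPKM in the other 5 libraries. The 7 endothelial markers that could be named summed to 171 to 371 and to 415 to 465 FPKM, and the stromal markers COL3A1 and THY1 to 723 to 1682 and 709 to 1171 FPKM. Of the endothelial markers, VWF and PTPRB were upregulated (limma, adjusted p = 0.0207 and 0.0307) and 5 did not pass, with EMCN at 25.0 and 25.5 FPKM. THY1 was downregulated, from 225 to 73.2 FPKM (log2 difference -1.63, SE 0.26, limma, adjusted p = 0.00815), and COL3A1, which made up most of the stromal sum, did not pass. No erythroid or nerve marker could be named, and both skeletal muscle markers that could, NEB and RYR1, were under a mean of 0.5 FPKM.

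SLC circRNAs were mostly rare, and a few hosts held most of their reads. They took 573 of 83165 back-spliced reads (0.689%), 283 in young and 290 in adult libraries. By library, in the order of the replicate numbers kept throughout, young animals had 97, 70 and 116 SLC reads and adults 65, 114 and 111. The share per library ran from 0.52% in adult replicate 1 (95% Wilson interval 0.408 to 0.662%) to 1.03% in adult replicate 3 (0.859 to 1.24%), and the young libraries, at 0.57 to 0.707%, lay between them. Such intervals cover counting error only. Distinct SLC circRNAs numbered 53, 38 and 57 in young and 29, 41 and 33 in adult libraries, with the second young library below the second adult one, so the groups overlapped.

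Of the 163 SLC circRNAs, 109 (66.9%) were seen in 1 library, close to the 64.6% of all circRNAs. A single read was the whole evidence for 62 (38%, against 38.1% of all). None was read in all 6 libraries, where 433 of all circRNAs were, and 2 were read in 5. Both groups had a read of 43, young libraries alone of 77 (47.2%, against 47.1% of all) and adult libraries alone of 43 (26.4%, against 28.2%). Exon circRNAs made up 151, exon-intron circRNAs 10 and intron circRNAs 2. The median distance from junction start to junction end was 8736 bases, against 11870 bases over all circRNAs, and it ran from 293 bases in SLC35B3 to 164177 bases in SLC4A4. Only 4 were marked by the authors as already published for cattle (2.45%, against 4.52%), namely 2 of SLC15A4 and 1 each of SLC30A7 and SLC4A7.

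A host gave 1 to 7 circRNAs. A single circRNA came from 33 of the 74 hosts (44.6%, against 38.8% of all hosts), and the mean was 2.20 per SLC host, against 3.55. SLC38A6, of the family of sodium-coupled neutral amino acid transporters, and SLC4A4, the electrogenic sodium bicarbonate cotransporter, gave 7 each. The 7 of SLC38A6 held only 9 reads, and each was in 1 library. The 7 of SLC4A4 held 22 reads, 0, 3 and 6 in young and 5, 5 and 3 in adult libraries, so the groups overlapped. SLC22A3, SLC4A7 and SLC35B3, which brings the sulfate donor PAPS into the Golgi, gave 6 each, and SLC7A7 and SLC38A9 gave 5 each. SLC8A1, SLC25A46, SLC30A9, SLC35F5 and SLC36A4 gave 4 each. The 10 circRNAs with the most reads came from 7 hosts and held 200 reads (34.9% of SLC reads), and the 17 hosts with at least 10 reads held 368 (64.22%). At the other end, 16 hosts rested on 1 read.

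Hosts with much mRNA did not all have many back-spliced reads. SLC29A1, the equilibrative nucleoside transporter, had the most mRNA of all 74 hosts, 213, 209 and 321 FPKM in young and 226, 222 and 172 FPKM in adult libraries, but only 7 back-spliced reads from 1 circRNA. SLC38A2, a sodium-coupled transporter of small neutral amino acids, followed with 57.4 ± 22.4 FPKM in young and 127 ± 66.3 FPKM in adult libraries (SD, n = 3), and had 4 reads, all in adult replicate 3. SLC22A3, with 5.80 ± 3.32 and 16.5 ± 6.36 FPKM, had 91 reads. The 10 hosts with the most mRNA, at a mean of 24.5 to 227 FPKM, held 83 reads between them, 25 of them from SLC25A36 and 24 from SLC39A8, and SLC22A3 alone held 91. Over the 74 hosts the rank correlation of reads with mean FPKM was 0.36, against 0.27 over 3995 hosts, given as a description since all points share the 6 libraries and their depth.

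**Figure D1:**
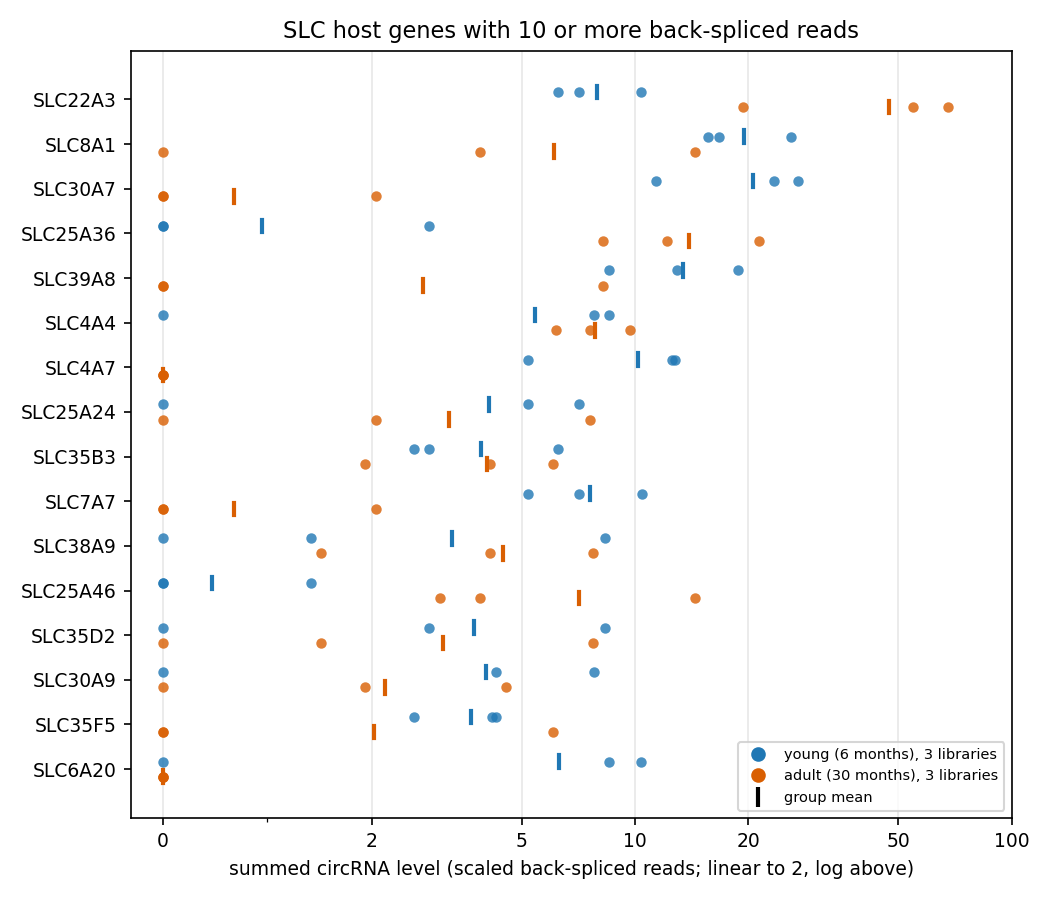
Summed circRNA level (scaled back-spliced reads, linear up to 2 and logarithmic above) of 16 of the 17 SLC hosts with at least 10 reads, 1 point per library and a bar at each group mean. SLC22A3, SLC25A36 and SLC25A46 lie higher in all 3 adult libraries, and SLC8A1, SLC30A7, SLC39A8, SLC4A7 and SLC7A7 higher in all 3 young libraries, SLC8A1 and SLC39A8 on this scale only.

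Among these 17 hosts the groups did not overlap in 8. The summed level, in back-spliced reads scaled per library by the authors, was higher in every adult library for 3 hosts and lower for 5. Of all 1505 hosts with at least 10 reads, 8.04% were higher and 17.7% lower in that sense. Per back-spliced read of each library, an alternative chosen after the data were seen, 3 of the 17 hosts were higher and 3 lower, against 11.2% and 14.3% of all, since SLC8A1 and SLC39A8 then overlapped. In the test of summed levels (limma, on log2 of the sum + 1), 30 SLC hosts had a read in at least 3 libraries, and 1 was upregulated and 1 downregulated in adults at an adjusted p under 0.05. Over all 2090 hosts tested, 0.67% were upregulated and 2.44% downregulated. The median difference, adult minus young, was -0.22 on the log2 scale over the 30 hosts and -0.40 over all.

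SLC22A3, an organic cation transporter that clears catecholamines in human and rodent tissues, was the upregulated host. Its 6 circRNAs had 3, 4 and 5 reads in young and 10, 36 and 33 in adult libraries. Every adult library was above every young one, and the first adult library stood well below the other two. The scaled level was 7.91 ± 2.17 in young and 47.3 ± 25.0 in adult libraries (SD, n = 3), a log2 difference of 2.29 (SE 0.60, limma, adjusted p = 0.0424). SLC22A3 alone made up 4.24% of SLC reads in young and 27.2% in adult libraries, and without it SLC reads numbered 271 in young and 211 in adult libraries. The mRNA of SLC22A3 was 5.32, 2.74 and 9.33 FPKM in young and 10.4, 23.1 and 16.1 FPKM in adult libraries. The mRNA groups did not overlap, with a log2 difference of 1.42 (SE 0.43, limma, adjusted p = 0.0563), which missed the threshold.

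The circRNAs of SLC22A3 were built around a single position. Of its 91 reads, 84 came from 4 circRNAs that share the junction end at chromosome 9, position 97960767, 10 reads in young and 74 in adult libraries. The largest, 9:97959636-97960767, spanned 1131 bases and had 2, 0 and 2 reads in young and 6, 21 and 14 in adult libraries. The next, 9:97955531-97960767, had 0, 1 and 1 reads in young and 0, 12 and 10 in adult libraries, so adult replicate 1 had none. An exon-intron circRNA to the same end, 9:97954056-97960767, had 4 reads in young and 7 in adult libraries. The log2 differences were 3.09 (SE 0.84), 1.86 (SE 1.23) and 0.03 (SE 1.01), and none passed (limma, adjusted p = 0.0897, 0.468 and 0.993), so the members of the host were unequal in size but were not tested against each other.

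SLC30A7, which loads zinc into the Golgi, was the downregulated host. Its 2 circRNAs had 13, 9 and 8 reads in young and 0, 0 and 1 in adult libraries, so 30 of 31 reads were in young animals. The scaled level was 20.6 ± 8.22 in young and 0.685 ± 1.19 in adult libraries (SD, n = 3), with a log2 difference of -3.81 (SE 0.96, limma, adjusted p = 0.0357). Per back-spliced read, the young rate was 27.1 times the adult rate, with a 95% exact interval of 4.51 to 1110 that covers counting error only. Both circRNAs end at chromosome 3, position 42531072. The longer, 3:42522336-42531072, is one of the published ones and had 8, 6 and 5 reads in young and 0, 0 and 1 in adult libraries. The shorter, 3:42526204-42531072, had 5, 3 and 3 reads in young libraries and none in adults. Its young mean was 4.08 times a floor of 3 reads over the adult group. The mRNA of SLC30A7 was 13.3, 29.1 and 16.5 FPKM in young and 10.5, 11.8 and 10.2 FPKM in adult libraries, lower in every adult library, with a log2 difference of -0.73 (SE 0.29, limma, adjusted p = 0.119) that did not pass.

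Both calls rested on small numbers of reads. SLC22A3 kept its call when adult replicate 1 was left out and lost it without any other library (adjusted p = 0.0237 to 0.191 over the 6 omissions). SLC30A7 kept its call without adult replicate 1 or adult replicate 3 and lost it without any of the other 4 (adjusted p = 0.0169 to 0.191).

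Several further hosts had groups that did not overlap without a call, SLC8A1 and SLC39A8 only on the authors' scale. SLC8A1, the sodium-calcium exchanger of the plasma membrane, had 8, 10 and 11 reads in young and 2, 0 and 7 in adult libraries, with a log2 difference of -2.24 (SE 0.89, limma, adjusted p = 0.141). SLC4A7, the electroneutral sodium bicarbonate cotransporter, had 6, 2 and 9 reads from 6 circRNAs in young libraries and none in adults (limma, adjusted p = 0.0722). Its young mean was 5.53 times the adult floor. With no adult read, SLC4A7 entered the test only through the young libraries, which fixed its direction. SLC39A8, an importer of zinc and manganese, had 9, 5 and 6 reads in young and 0, 0 and 4 in adult libraries (log2 difference -2.72, SE 1.04, limma, adjusted p = 0.130). Not all hosts of the same families were read mainly in young animals, since SLC4A4 had 9 young and 13 adult reads and SLC39A10 had 3 and 6. SLC7A7, a light chain that exchanges cationic amino acids, had 5, 2 and 5 reads in young and 0, 0 and 1 in adult libraries (limma, adjusted p = 0.163).

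Higher reads in every adult library were found for a pair of SLC25 hosts, again without a call. SLC25A36, a carrier of pyrimidine nucleotides, gave 1 circRNA, 1:129011145-129023857, with 0, 0 and 2 reads in young and 11, 8 and 4 in adult libraries. Its scaled level was 0.947 ± 1.64 and 13.9 ± 6.72 (SD, n = 3), with a log2 difference of 3.15 (SE 1.02, limma, adjusted p = 0.1001), and an adult rate per back-spliced read 12.7 times the young one (95% exact interval 3.14 to 111). Its mRNA was 42.4 ± 6.76 and 47.7 ± 3.39 FPKM. SLC25A46, which sits in the outer mitochondrial membrane, had 0, 0 and 1 reads in young and 2, 2 and 7 in adult libraries, and all 7 of adult replicate 3 were from 1 circRNA seen only there. SLC6A20, a transporter of proline, had 0, 4 and 6 reads in young libraries and none in adults. Its young mean was 3.43 times the adult floor, and its groups overlapped at 0.

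Of single circRNAs, 23 SLC members were read in at least 3 libraries and could be tested, and 0 passed an adjusted p under 0.05 in limma, where 8 had an unadjusted p under 0.05. Over all 2834 circRNAs tested, 0.106% were upregulated and 0.776% downregulated in adults. The median difference was -0.02 over the 23 and -0.34 over all. With a voom model of the recovered reads, 2 SLC circRNAs were higher and 4 lower. The smallest adjusted p was 0.0540, of 11:22513792-22530506 in SLC8A1, with 6, 5 and 10 reads in young libraries and none in adults. Its scaled level was 13.2 ± 0.879 in young libraries (SD, n = 3), 7.20 times the adult floor, and the log2 difference was -3.83 (SE 0.78). The circRNA of SLC39A8 from 6:23847376 to 23857379 had 5, 5 and 6 reads in young and 0, 0 and 1 in adult libraries (log2 difference -2.99, SE 0.84, limma, adjusted p = 0.0897). Where adult animals had no read or 1 read, the fitted difference depends on the pseudocount of 1 and is not a bound. A circRNA with no adult read, such as that of SLC8A1, passed the filter of 3 libraries only through the young group. Its direction was thus fixed by the filter, and its adult values had no spread.

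Reads of circRNAs from the same host were not all divided alike between the groups. In SLC8A1 the 2 circRNAs that start at chromosome 11, position 22513792, had 24 reads in young and 0 in adult libraries, but the 2 that start at position 22485715 had 5 reads in young and 9 in adult libraries. The second pair includes 11:22485715-22530506, with 1, 3 and 0 reads in young and 2, 0 and 6 in adult libraries, which shares its end with the largest circRNA of the host. In SLC39A8 the 2 circRNAs that start at chromosome 6, position 23847376, had 18 young reads and 1 adult read. The third, 6:23854237-23857379, had 2 reads in young replicate 1 and 3 in adult replicate 3, and none elsewhere. In SLC4A7, 4 circRNAs ended at chromosome 22, position 1804026, and held 14 of the 17 reads, all in young animals. Differences between circRNAs of a host were not tested, since so few reads were at hand.

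Sharing a junction end was the usual state of hosts with more than 1 circRNA. Of the 130 circRNAs from 41 such SLC hosts, 97 (74.6%) had the same start or the same end as another, against 78% over all hosts. SLC25A24, the carrier of ATP-Mg and phosphate, gave 3 circRNAs to a single end with 7 young and 6 adult reads. SLC35B3 gave 4 from a single start with 5 reads in each group. SLC7A7 gave 4 from a single start with 9 young reads and 1 adult read.

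**Figure D2:**
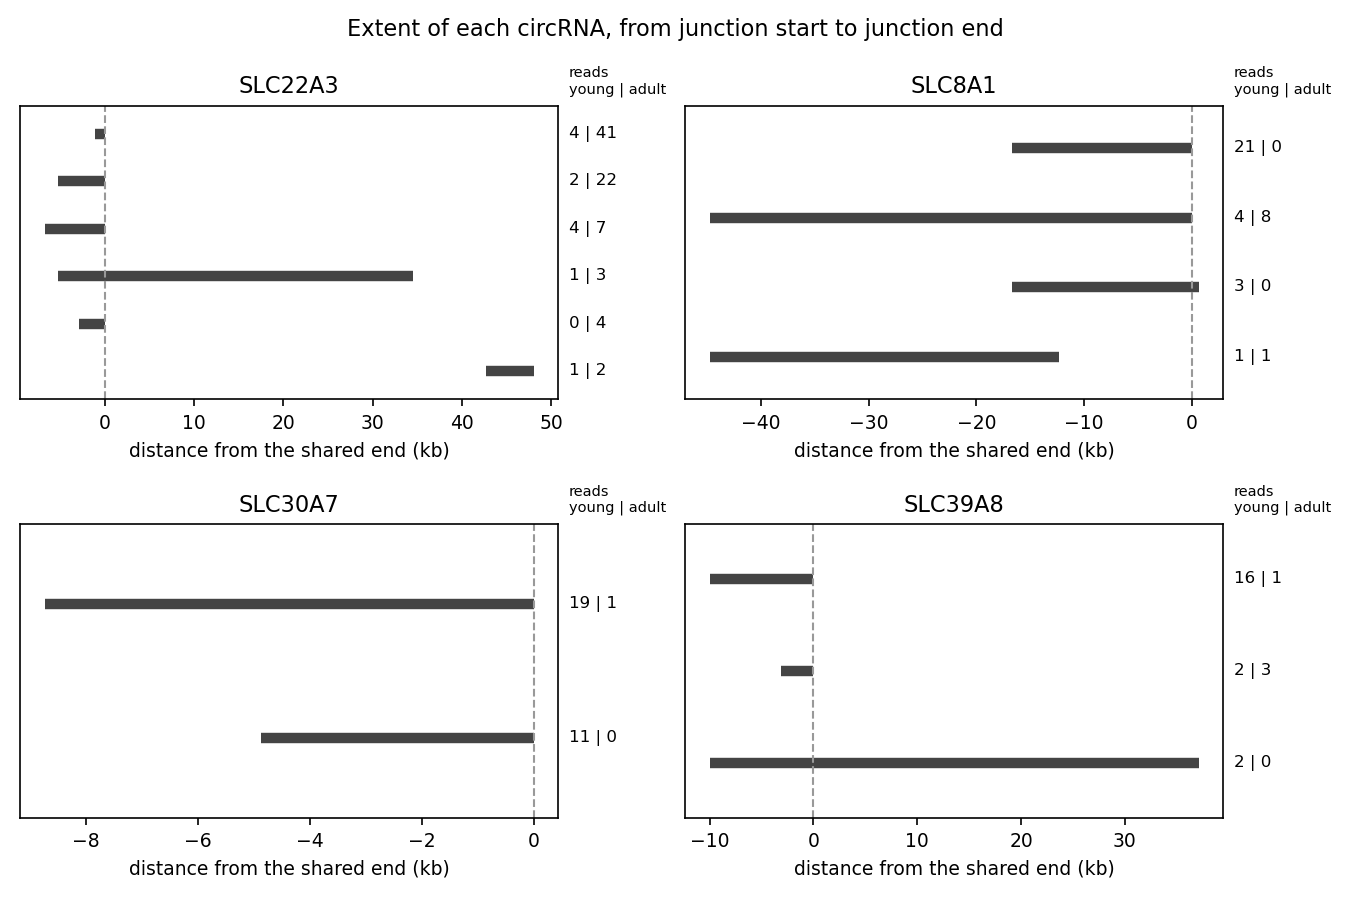
Extent of the circRNAs of SLC22A3, SLC8A1, SLC30A7 and SLC39A8, drawn from junction start to junction end as the distance in kb from the junction end with the most reads (dashed line at 0), in order of reads. The numbers beside each bar are the back-spliced reads over the 3 young and the 3 adult libraries, such as 4 and 41 for the largest of SLC22A3 and 21 and 0 for the largest of SLC8A1.

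At the mRNA level SLC hosts stood higher in adults more often than lower. Of 74 hosts, 68 had a mean of at least 0.5 FPKM and were tested, and the 6 others had at most 0.372 FPKM. In adults 10 were upregulated (14.7%), 2 were downregulated (2.94%) and 56 did not pass (limma on log2 of FPKM + 1). Over all 14695 genes and transcripts tested, 10.5% were upregulated and 9.3% downregulated. The hosts lay higher in every adult library in 22 cases (32.4%) and lower in 9 (13.2%), where 22.3% and 20.4% of all tested did so. The median difference was 0.31 over the SLC hosts and 0.01 over all tested, and 0.11 over the 3894 circRNA hosts that were tested, of which 11.4% were upregulated and 7.11% downregulated. The SLC hosts summed to 850, 961 and 1068 FPKM in young and to 1336, 1304 and 1268 FPKM in adult libraries. The FPKM of all transcripts summed to less in adults. A sum is weighted to hosts of high FPKM, such as SLC16A1 (means of 46.2 in young and 127 in adult libraries) and SLC38A2 (57.4 and 127). SLC29A1, the highest, went the other way (248 and 207). Of the 4 adipocyte markers, LPL was upregulated, from 191 ± 137 to 2148 ± 848 FPKM (SD, n = 3, log2 difference 3.74, SE 0.63, limma, adjusted p = 0.00937), and CIDEC, PPARG and PLIN4 did not pass and overlapped between groups. Their part in the differences of SLC hosts was not tested.

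The scale of FPKM mattered to the counts. When each library was set to an equal sum of FPKM, the median over all tested moved by 0.60, 41 SLC hosts were upregulated and 0 downregulated, and 41.2% of all tested were upregulated and 4.74% downregulated. Since 1 is added before the log, scaling moves genes of low FPKM by less than those of high FPKM. SLC9A7 went from -0.67 to -0.49 and SLC16A1 from 1.53 to 2.25. The SLC median was 0.30 above that of all tested on both scales, which is not a separate result, since the same factor per library scales every gene. Of the 12 calls, 10 held at an equal sum, and those of SLC4A7 and SLC8A1 were lost. The log2 difference of SLC4A7 went from -1.41 to -0.74 and that of SLC8A1 from -0.77 to -0.08 (limma, adjusted p = 0.0831 and 0.709). The sign turned at an equal sum for 13 hosts that had not been called, and 1 of them, SLC8B1, passed there (log2 difference -0.05 as deposited and 0.62 at an equal sum, limma, adjusted p = 0.049). With each library left out in turn, 2 to 15 hosts were upregulated and 0 to 2 downregulated. The call of SLC25A20 held in all 6 omissions (adjusted p = 0.00821 to 0.0172), and that of SLC30A9 in 5, being lost without adult replicate 2 (adjusted p = 0.0544). The other 10 were each lost in at least 2 omissions.

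**Figure D3:**
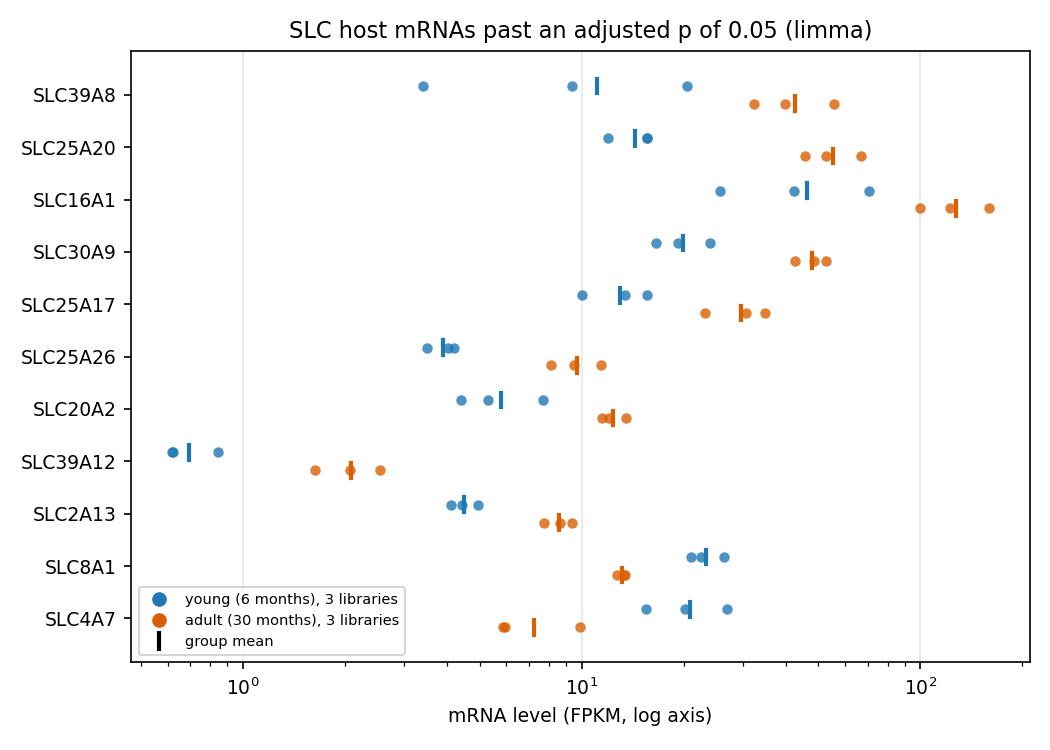
mRNA level (FPKM, logarithmic axis) of 11 of the 12 SLC hosts past an adjusted p of 0.05, with 1 point per library and a bar at each group mean, in order of the log2 difference. The 9 upper hosts, from SLC39A8 to SLC2A13, lie higher in all adult libraries, and SLC8A1 and SLC4A7 lower.

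Among the 13 SLC25 hosts, 3 were upregulated, 0 were downregulated and 10 did not pass, where 10.5% of all tested were upregulated and 9.3% downregulated. None of the classes was tested as a group, and with so few hosts in each a count of 1 to 3 says little beside these shares. SLC25A20, which exchanges carnitine and acylcarnitine across the inner mitochondrial membrane and so admits fatty acids to oxidation, had 15.6, 11.9 and 15.6 FPKM in young and 52.7, 67.0 and 45.5 FPKM in adult libraries. The highest young library was far below the lowest adult one, with a log2 difference of 1.86 (SE 0.22, limma, adjusted p = 0.00239). SLC25A26, which brings S-adenosylmethionine into mitochondria, went from 3.90 ± 0.369 to 9.67 ± 1.66 FPKM (SD, n = 3, log2 difference 1.11, SE 0.20, limma, adjusted p = 0.0117). SLC25A17, which despite its family acts in the peroxisomal membrane, where it carries CoA and other cofactors, went from 13.0 ± 2.80 to 29.5 ± 5.89 FPKM (log2 difference 1.12, SE 0.24, limma, adjusted p = 0.0208). SLC25A11, the oxoglutarate carrier of the malate shuttle, had 14.8 ± 6.47 and 40.1 ± 13.8 FPKM and missed the threshold (limma, adjusted p = 0.0519). SLC25A36 and SLC25A30 were near the top of the class at 42.4 and 36.1 FPKM in young and 47.7 and 31.2 FPKM in adult libraries. The host of the acylcarnitine carrier thus changed in its mRNA with 1 back-spliced read in all, and SLC25A36 gave 25 back-spliced reads.

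In the class of carboxylates, lipids and vitamins, 2 of 8 hosts were upregulated and none downregulated. SLC16A1, the transporter of lactate and ketone bodies MCT1, had 25.7, 70.6 and 42.4 FPKM in young and 159, 122 and 99.7 FPKM in adult libraries (log2 difference 1.53, SE 0.38, limma, adjusted p = 0.0317). SLC44A2, a choline transporter, and SLC33A1, which moves acetyl-CoA into the endoplasmic reticulum, lay higher in all adult libraries without a call, at 18.7 and 30.2 FPKM and at 7.57 and 11.7 FPKM.

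Of the 7 metal transporters, 3 were upregulated and none downregulated, where 10.5% and 9.3% of all tested were, and the median difference was 0.79, with no test of the class. SLC30A9, a zinc carrier of mitochondria, had 16.6, 19.3 and 24.0 FPKM in young and 48.5, 52.7 and 42.5 FPKM in adult libraries (log2 difference 1.23, SE 0.21, limma, adjusted p = 0.00899). SLC39A8 had 9.37, 3.40 and 20.5 FPKM in young and 32.3, 39.7 and 55.5 FPKM in adult libraries (log2 difference 2.10, SE 0.55, limma, adjusted p = 0.0374). SLC39A12, a zinc importer, was low, at 0.695 ± 0.130 and 2.08 ± 0.456 FPKM (SD, n = 3, limma, adjusted p = 0.0480). SLC30A6, the partner of zinc export into the Golgi, and the importer SLC39A10 did not pass, at 17.7 and 30.1 FPKM and at 22.2 and 24.7 FPKM. SLC30A7, given above, lay lower in all adult libraries without passing.

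The 16 hosts for ions and pH were divided, with 1 upregulated and 2 downregulated of 14 tested. SLC4A7 had 26.9, 20.2 and 15.5 FPKM in young and 9.92, 5.84 and 5.92 FPKM in adult libraries (log2 difference -1.41, SE 0.28, limma, adjusted p = 0.0167). SLC8A1 had 22.5, 21.1 and 26.3 FPKM in young and 12.7, 13.3 and 13.5 FPKM in adult libraries (log2 difference -0.77, SE 0.18, limma, adjusted p = 0.0249). In both, every adult library lay below every young one on the deposited scale, and at an equal sum of FPKM neither passed, with little difference left in SLC8A1 (log2 difference -0.08). MYH11, a marker of smooth muscle, was also lower in adults (log2 difference -2.22, SE 0.44, limma, adjusted p = 0.0154), whereas NOTCH3, the other marker of that list, was at 6.00, 4.57 and 3.37 FPKM in young and 8.14, 6.81 and 7.79 FPKM in adult libraries (log2 difference 0.63, SE 0.23, limma, adjusted p = 0.0994). The part of these cells in the values of SLC4A7 and SLC8A1 was not tested. SLC20A2, a sodium-phosphate cotransporter, went from 5.80 ± 1.70 to 12.4 ± 1.06 FPKM (SD, n = 3, log2 difference 1.00, SE 0.23, limma, adjusted p = 0.0252). SLC4A4 did not pass, at 14.1 and 23.3 FPKM.

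In the other classes calls were scarce. Of the 4 sugar transporters, 1 was upregulated, SLC2A13, which takes up myo-inositol with protons, from 4.50 ± 0.409 to 8.57 ± 0.807 FPKM (SD, n = 3, log2 difference 0.80, SE 0.18, limma, adjusted p = 0.0259). SLC2A9, a urate transporter, SLC2A12 and SLC37A3 did not pass, at 4.93 and 3.83 FPKM, 1.86 and 1.22 FPKM, and 10.3 and 10.6 FPKM. None of 10 amino acid transporters tested passed, although their median difference was 0.30. SLC7A7 had 6.66, 13.9 and 4.60 FPKM in young and 2.46, 3.59 and 3.79 FPKM in adult libraries, with a log2 difference of -1.02 (SE 0.37, limma, adjusted p = 0.0964). CD163, a macrophage marker, was downregulated with a log2 difference of -2.25 (SE 0.30, limma, adjusted p = 0.00393). The other macrophage marker named, MRC1, did not pass and overlapped between groups (log2 difference -0.62, SE 0.46, limma, adjusted p = 0.3725). The part of these cells in the values of SLC7A7 was not tested. SLC36A4 and SLC43A2 had 8.13 and 11.3 FPKM and 7.50 and 10.2 FPKM. None of 7 hosts for nucleosides and nucleotide sugars passed, including SLC35A1, which carries CMP-sialic acid into the Golgi, at 14.01 and 21.41 FPKM, SLC35A3 at 11.0 and 12.4 FPKM and SLC35F5 at 9.30 and 12.1 FPKM. None of 5 hosts for organic ions and drugs passed, with SLCO2B1 at 7.94 and 11.5 FPKM, SLC15A4 at 6.38 and 7.49 FPKM and SLC18B1 at 5.93 and 4.80 FPKM.

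**Figure D4:**
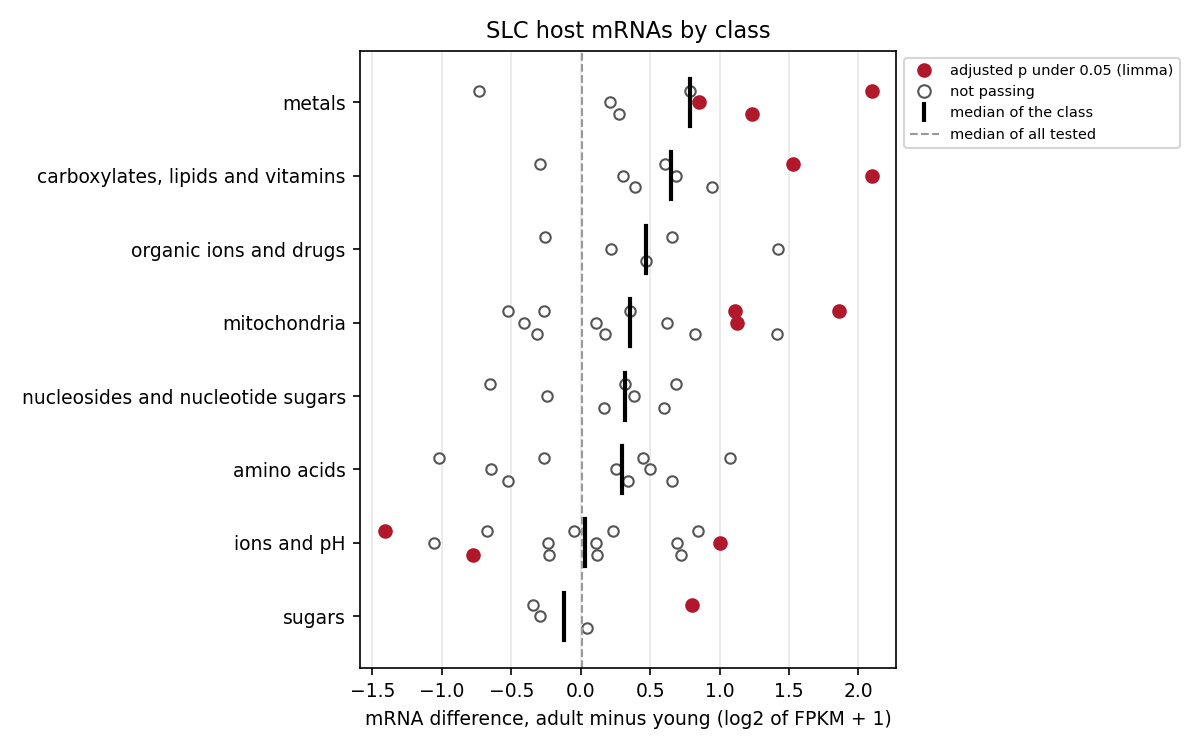
Difference in mRNA, adult minus young (log2 of FPKM + 1), of the 68 SLC hosts tested, by class, with filled points for an adjusted p under 0.05, a bar at the median of the class and a dashed line at the median of all tested (0.01). Metals have the highest median (0.79) and sugars the lowest (-0.12).

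Other transporters and helpers named in the files were counted in the same fit. Of 15 ABC transporters, 2 were upregulated, namely ABCA10 and ABCD3, which brings fatty acyl groups into peroxisomes, 1 was downregulated, ABCD4 of the lysosome, and 12 did not pass. Of 9 ion-pumping ATPases tested, 3 were upregulated, namely ATP2A2, the calcium pump of the endoplasmic reticulum, and the proton pump subunits ATP6V1A and ATP6V1D, and none was downregulated. Of 23 genes of insulin signalling and glucose uptake, 3 were upregulated, namely PIK3CB, TBC1D4 and SORT1, and none was downregulated. The share of all tested was 10.5% upregulated and 9.3% downregulated, as above, and the medians of the 3 lists were 0.59, 0.68 and 0.47 in log2, against 0.01 over all tested. Genes could be named only where they host a circRNA. Over the 3894 circRNA hosts tested the median was 0.11, with 11.4% upregulated and 7.11% downregulated. The lists were not tested as groups.

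Whether the circRNAs and the mRNA of a host changed unequally was tested on the difference of their log2 values in 30 hosts. SLC39A8 alone passed, with circRNAs lower relative to mRNA in adults, and no host passed upward. The difference was negative in 19 of the 30 hosts and positive in 11. Over all 2080 hosts tested, 1.49% passed as lower and 0.0962% as higher. The median was -0.25 over the 30 hosts and -0.51 over all. At equal reads and FPKM sums the median over all was -0.94, so the zero of this difference depends on the scales. The mRNA of SLC39A8 was highest in the 3 adult libraries, where 2 of 3 had no back-spliced read, and the third had both the most mRNA, 55.5 FPKM, and 4 reads. The difference of the changes was -4.81 (SE 1.02, limma, adjusted p = 0.0227). Since 2 adult libraries had no read, its size depends on the pseudocount of 1 and is not a bound. The summed circRNA level of SLC39A8 alone did not pass (limma, adjusted p = 0.130) and overlapped per back-spliced read. The call on the difference held without adult replicate 1 or 3 and was lost without any of the other 4 libraries (adjusted p = 0.00752 to 0.216). SLC30A7 came next at -3.08 (SE 0.90, limma, adjusted p = 0.0831) and SLC25A36 at 2.98 (SE 0.97, limma, adjusted p = 0.111).

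The signs of the circRNA and the mRNA difference were the same in 21 of the 30 SLC hosts and in 1223 of 2080 hosts. The correlation of these differences was 0.42 (Pearson) and 0.48 (Spearman) over the 30 hosts, and 0.34 and 0.32 over all, as a description across genes that share libraries. SLC4A7 and SLC8A1 had lower values of both RNAs in adults. SLC22A3 had higher values of both, with a difference of 0.87 (SE 0.63, limma, adjusted p = 0.517) that did not pass.

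**Figure D5:**
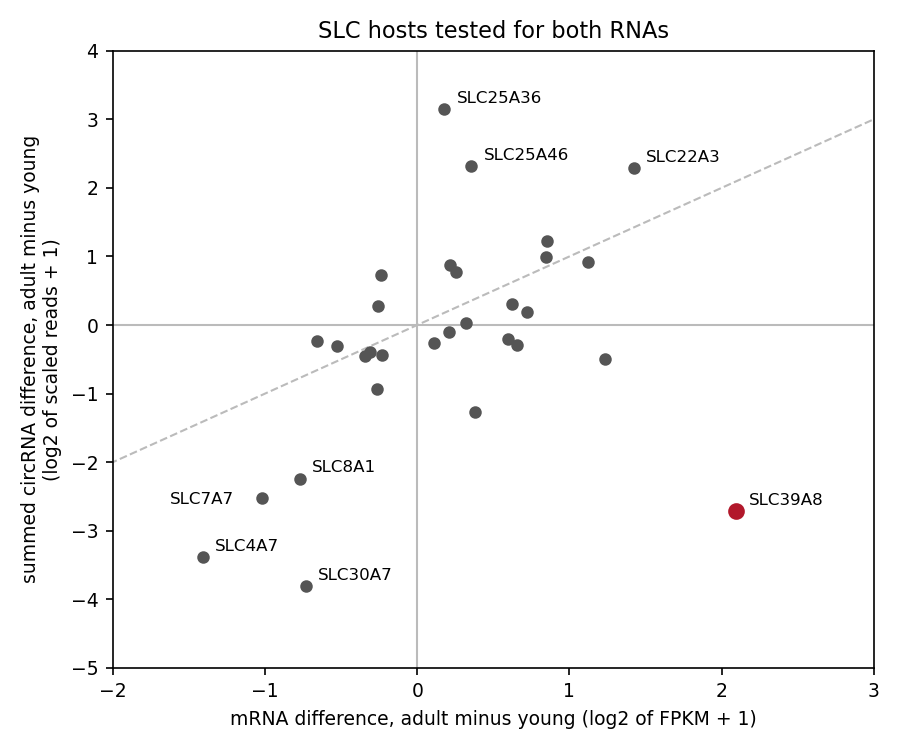
Difference in summed circRNA level (vertical, log2 of scaled reads + 1) against the difference in mRNA (horizontal, log2 of FPKM + 1), adult minus young, for the 30 SLC hosts tested for both, with a dashed line where they are equal. SLC39A8 (filled in red) lies at 2.10 in mRNA and -2.72 in circRNA, the only host past the adjusted p for unequal change.

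The lncRNA table named an SLC host as the nearest target of 10 transcripts. Levels were higher in every adult library for 3 of them and lower for none, where 11.8% and 10.4% of all 9494 lncRNA transcripts did not overlap upward and downward. A bidirectional lncRNA at SLC16A1 had 2.92, 1.44 and 1.90 FPKM in young and 5.05, 6.02 and 4.80 FPKM in adult libraries, the same direction as SLC16A1 mRNA. Both others were intronic lncRNAs of SLC9A7, a sodium-proton exchanger of the Golgi, the first at 3.02, 1.67 and 1.03 FPKM in young and 3.73, 4.38 and 5.94 FPKM in adult libraries, and the second at 0.589 to 1.97 and at 3.11 to 4.36 FPKM. SLC9A7 mRNA was at 0.889 and 0.157 FPKM and lower in every adult library. An intronic lncRNA of SLC22A3 had 4.07 ± 2.63 and 3.95 ± 2.06 FPKM (SD, n = 3), where the groups overlapped. Whether strand was used in counting was not given in the sources used here, so reads of an intronic or antisense lncRNA and of its host cannot be told apart.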

How the data were processed

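Reads were trimmed by the authors (Trim Galore), mapped with STAR on the cattle assembly UMD3.1 and searched for back-spliced junctions by CIRCexplorer2. The submitters' processing notes also name TopHat2 2.0.14 and Cufflinks, without their roles. The circRNA levels as deposited are log2 of back-spliced reads, scaled by library, plus 1. The unlogged levels came out as whole multiples of 1 step per library in 100% (tolerance 1e-06), which gave the reads. The mRNA and lncRNA values that the authors deposited are log2(FPKM + 1), and the depth behind FPKM is unknown. Columns and tables of the authors' own comparisons (fold changes, p-values and FDR) were not used.

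Adult minus young differences were fitted in R 4.3.3 by limma 3.58.1 with a trend in eBayes, adjusted after Benjamini-Hochberg over all features tested and called under 0.05. The filter asked for reads in 3 of the 6 libraries or for a mean FPKM of 0.5 or more, and the pseudocount was 1. Symbols came from the circRNA table (3995 genes with mRNA), and 70 of the 74 SLC symbols are in the buffalo RefSeq table. The main fits, but not the alternatives, were run on simulated data with normal noise around the observed means. Reads were not drawn as counts, so this does not show how the circRNA fits behave with sparse reads. A group with no read was given a floor of 3 reads over its 3 libraries. A fold against that floor divides the mean of the other group by it and carries no error of that mean, so it is not a bound. Each library is 1 animal, and replicate numbers were taken as names only. The p-values rest on the spread between these animals, moderated by limma toward the spread over all features tested. That prior had 6.65 degrees of freedom for single circRNAs, 16.9 for host sums, 3.16 for mRNA and 14.7 for circRNA minus mRNA. Calls of host sums and of circRNA minus mRNA thus rest in large part on the pooled spread.

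The text names the 10 SLC circRNAs with the most reads and the 6 with the smallest p, the 8 hosts with the most circRNAs and the 8 with the highest sum, every host called, and up to 4 per class by mean FPKM. Some members that this rule takes are counted but not reported by name here. Others were named after their values were seen, such as SLC25A46, SLC9A7 and SLC33A1. Members, classes and lists were chosen with earlier results of these data known. The alternatives changed the filter, pseudocount, scaling, variance model and combination of transcripts, left out each library and took the replicate number as a block.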

Additional observations from a re-analysis of the deposited data

How the results depend on the processing

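No direction of a named call turned under any alternative run. For single circRNAs, 2 SLC members were higher and 2 lower with the replicate block, 2 lower without a trend in the variance, 1 higher and 1 lower when a read in 2 libraries sufficed, and 2 higher and 4 lower with voom. For host sums, calls were 0 to 1 upward and 0 to 1 downward with a library left out, 0 and 0 without the trend, 0 and 0 with a pseudocount of 0.5, and 2 and 2 with voom. Per back-spliced read, 3 hosts with at least 10 reads lay lower in every adult library, in place of 5. For mRNA, calls upward ranged from 2 to 15 and downward from 0 to 2 with a library left out, were 4 and 1 with the replicate block, and 41 and 0 at an equal sum of FPKM. For circRNA minus mRNA, calls downward ranged from 0 to 1 with a library left out. They were 2 with the replicate block and 3 at equal reads and sums. Among hosts read in every library there were 0, but SLC39A8 had no read in 2 adult libraries and could not enter that fit. The cause of these changes was not tested, except that fewer libraries or hosts enter by construction. In the host sums with the block, with voom or without a filter, and in circRNA minus mRNA with the block, limma took an infinite prior for the variance. For single circRNAs the prior had 14225 degrees of freedom with the block and 829 when a read in 2 libraries sufficed. All those calls rest almost wholly on the spread over all features tested. The deviations of equally numbered libraries had correlations of -0.066, -0.031 and -0.125 for mRNA, against -0.029 to 0.096 for unequal numbers. With 3 animals per group this cannot exclude a pairing, and the labels name none. Depth limits the rest, since 140 of 163 SLC circRNAs were in under 3 libraries and not tested.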
